A study of Mus musculus with 6 samples.

Results

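Messenger RNA of 9 enzymes that break down tyrosine and tryptophan was examined in mouse liver. The genes were chosen by name, as *Tat*, *Hpd*, *Hgd* and *Fah* for tyrosine and *Tdo2*, *Afmid*, *Kmo*, *Kynu* and *Haao* for tryptophan. The choice was made with earlier results of these data known, so counts over the 9 genes are descriptive. Each gene matched 1 row of the count table, and all 9 were among the 14496 tested of 25403 listed genes. The libraries came from 3 wild-type C57BL6/J livers (WT) and 3 livers of whole-body *Themis*-knockout mice (*Themis*-KO), all poly(A) RNA. *Themis* encodes a regulator of T cell receptor signaling, and the knockout removes it from T cells as well as from hepatocytes. From the age of 10–12 weeks every mouse ate a MASH diet for 3 months, with 40% of calories as fat, 20% as fructose, and 2% cholesterol, and no chow-fed liver was analyzed here. The diet-fed cohort is described as male, while the labels of these livers give no sex. The WT strain was purchased and the knockout line came from another laboratory, while chow-fed WT and knockout mice of the study are called littermates. Whether the sequenced, diet-fed mice were littermates is not said.

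Tyrosine is degraded in the hepatocyte cytosol along a linear path. TAT, the transaminase that opens it, makes 4-hydroxyphenylpyruvate. HPD converts this to homogentisate, HGD opens the ring, and FAH cleaves a later product into fumarate and acetoacetate. Inherited loss of FAH is known as a cause of tyrosinemia. Most dietary tryptophan enters the kynurenine pathway, in which TDO2 opens the indole ring, AFMID releases kynurenine, and KMO, KYNU, and HAAO carry it toward quinolinate, a precursor of NAD. *Tat* and *Tdo2* are classic glucocorticoid-induced genes of the liver.

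The libraries held between 20679642 and 25649767 estimated counts, and no replicate pair of a group agreed within sampling noise. Expression is given as CPM, the reads of a gene scaled to library size with TMM factors. Adjusted p values come from edgeR (quasi-likelihood F test) with the Benjamini-Hochberg method over all tested genes. *Themis* itself did not separate the labels. Its CPM was 8.07, 25.6, and 12.0 in WT livers and 8.62, 7.74, and 9.96 in *Themis*-KO livers (adjusted p = 0.199 from edgeR), so the groups are named by their labels. WT replicates 1 and 2 stood apart from the other 4 libraries, with the pseudogene *Gm28438* taking 96.6% and 96.8% of its summed CPM with the mitochondrial gene *mt-Nd3*, against 2.2% to 3.26% elsewhere. The 11 matched hepatocyte markers reached summed levels of 69104 to 73870 CPM in WT and 60753 to 64104 CPM in *Themis*-KO livers, and no hepatocyte or macrophage marker was at 0 in any library.

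All of the genes but *Kynu* had a RefSeq promoter window in GRCm38.p6, from 250 bases before to 50 bases after the start site. The windows of *Hpd*, *Haao*, and *Afmid* are shown. That of *Hpd*, the gene with the largest decrease of the 9, lies at chr5:123182674-123182973 on the reverse strand. That of *Haao*, a gene of the tryptophan path, lies at chr17:83846741-83847040 on the reverse strand, and its capitals mark matches to the letters searched. That of *Afmid* lies at chr11:117825669-117825968 on the forward strand, and its capitals mark the bases from its start site on, which *Tk1* transcribes in the opposite direction.
Hpd: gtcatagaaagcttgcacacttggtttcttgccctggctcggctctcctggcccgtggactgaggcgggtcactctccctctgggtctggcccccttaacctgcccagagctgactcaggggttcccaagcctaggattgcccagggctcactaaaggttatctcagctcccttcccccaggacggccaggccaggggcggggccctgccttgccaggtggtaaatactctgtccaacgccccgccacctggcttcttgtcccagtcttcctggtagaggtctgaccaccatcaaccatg
Haao: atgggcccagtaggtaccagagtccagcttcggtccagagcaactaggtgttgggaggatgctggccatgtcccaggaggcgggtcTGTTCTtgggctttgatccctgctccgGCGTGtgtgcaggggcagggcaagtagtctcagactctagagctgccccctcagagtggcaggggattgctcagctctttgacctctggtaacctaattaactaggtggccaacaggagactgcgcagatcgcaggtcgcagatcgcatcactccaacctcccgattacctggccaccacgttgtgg
Afmid: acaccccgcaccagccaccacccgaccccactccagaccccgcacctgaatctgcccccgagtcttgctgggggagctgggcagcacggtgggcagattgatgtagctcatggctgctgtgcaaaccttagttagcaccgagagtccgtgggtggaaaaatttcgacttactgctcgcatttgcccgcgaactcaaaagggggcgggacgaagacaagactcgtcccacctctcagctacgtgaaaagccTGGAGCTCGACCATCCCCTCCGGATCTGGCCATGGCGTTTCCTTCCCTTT
The *Haao* window held 2 matches. TGTTCT, a glucocorticoid receptor hexamer, was found there and in the *Kmo* window and is present in 19% of 32851 RefSeq promoter windows. GCGTG, the aryl hydrocarbon receptor core, was found in the *Haao*, *Fah*, and *Tdo2* windows and is present in 32.4% of all windows. Among the windows of these genes only that of *Haao* held both TGTTCT and GCGTG. No window of these genes held TTGCGCAA (C/EBP), TGTTTAC (FOXA), or CAAAGTCCA (HNF4), which are present in 0.183%, 3.65%, and 0.475% of windows. The looser C/EBP pattern TTNNGNAA, in 40.7% of windows, was found in those of *Hgd*, *Kmo*, and *Tat*. Both strands were searched, TTGCGCAA is itself a case of TTNNGNAA, and only TGTTCT and TTNNGNAA in *Kmo* overlapped. A match is a run of letters and not a measured site. The windows of *Kmo* (chr1:175631943-175632242), *Haao*, *Fah*, and *Tdo2* lie inside the GENCODE gene spans given below. Their RefSeq start sites thus differ from the GENCODE gene starts.

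Messenger RNA of both paths was lower in livers labelled *Themis*-KO, and each direction given here rests on those labels. Of the 9 genes, 7 fell at an adjusted p under 0.05 and 0 rose, against 4.14% of all tested genes lower in this comparison and 4.97% higher. *Hpd* fell most, and *Hgd*, *Fah*, *Tdo2*, *Kmo*, *Kynu*, and *Haao* fell to between 61.2% and 73.6% of the WT level. *Afmid* was lower in all 3 *Themis*-KO livers but missed the threshold, and *Tat* was spread over both groups. For 8 of the 9 genes every *Themis*-KO liver lay below every WT liver, as did 16.9% of all tested genes, and all 9 log2 fold changes were negative, as were 49% of all. The median log2 fold change was −0.57 over the 9 genes and 0.0095 over all tested genes. These genes are abundant in liver, and among the 2673 tested genes with a mean of at least 55.9 CPM, that of the least abundant of the 9, 10.6% were called lower, 31.1% were lower without overlap, and the median was −0.087.

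DESeq2 called 8 of the 9 lower, against 7.83% of the genes it tested, and scaling by total counts alone left 4, against 2.67%. With a fold change of at least 1.5 required as well there were 3, against 2.5%. The number called changed with the liver left out, and each such fit also has fewer livers. Without *Themis*-KO replicate 3 the 8 genes other than *Tat* were called lower, against 13.8% of all genes in that fit. Without WT replicate 3 there were 3 (*Hpd*, *Fah*, and *Kmo*), against 2.49% of all genes. Without WT replicate 1, WT replicate 2, or *Themis*-KO replicate 2 only *Hpd* passed in each fit, against 0.216%, 0.384%, and 0.278% of all genes, and without *Themis*-KO replicate 1 there were 0, with *Hpd* at an adjusted p of 0.0504, against 0.0814%. In each of these 6 fits at least 8 of the 9 genes were lower at an unadjusted p under 0.05, against 9.03% to 21% of all genes. With the *Gm28438* split as a covariate, which leaves 1 WT liver for the comparison within its type, 0 of the 9 were called, against 0.0207% of all genes, while all 9 log2 fold changes were negative, from −1.12 to −0.32, and 5 had an unadjusted p under 0.05, against 5.11% of all genes lower. The genotype and this split are partly confounded and cannot be told apart with these livers.

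**Figure D1:**
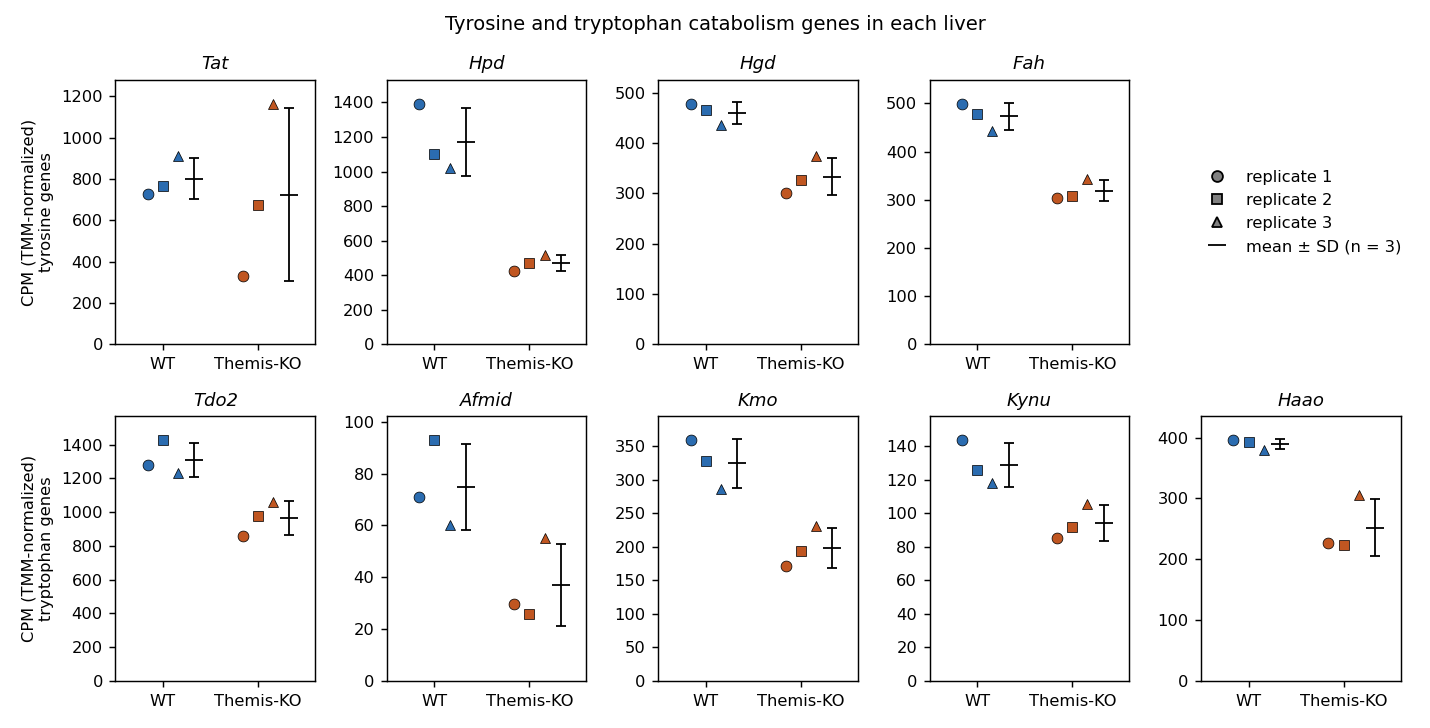
TMM-normalized CPM of the 9 genes in each liver, with tyrosine genes in the upper row and tryptophan genes in the lower row. Points are livers, marker shapes are replicate numbers, and the bar beside each group is the mean ± SD of 3 livers. The groups do not overlap except for *Tat*, whose *Themis*-KO livers run from 329.9 to 1164 CPM.

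*Hpd* (ENSMUSG00000029445, chromosome 5, 123171807 to 123182727, reverse strand, GRCm38), which encodes the dioxygenase that makes homogentisate, had a CPM of 1392, 1104, and 1019 in WT livers (replicates 1 to 3, as throughout). In *Themis*-KO livers, in the same order, it was 425.5, 469.7, and 515.0. The highest *Themis*-KO liver had 0.505 times the CPM of the lowest WT liver. The log2 fold change was −1.32 (adjusted p = 0.00936 by edgeR, SE 0.14), a decrease to 40.1% of WT, and only 0.931% of tested genes had a lower one. It stayed between −1.41 and −1.18 when single livers were omitted.

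*Fah* and *Hgd*, the 2 enzymes downstream, fell less. The highest *Themis*-KO liver had 1.13 times the CPM of the lowest for *Fah* and 1.25 times for *Hgd*. *Fah* (ENSMUSG00000030630, chromosome 7, 84585159 to 84606722, reverse strand), for the closing hydrolase, had a CPM of 499.1, 478.2, and 443.3 in WT livers and 304.2, 308.7, and 343.6 in *Themis*-KO livers, and its log2 fold change was −0.57 (adjusted p = 0.0220 by edgeR, SE 0.093). *Hgd* (ENSMUSG00000022821, chromosome 16, 37580153 to 37632020, forward strand), for the ring-opening dioxygenase, had a CPM of 478.3, 465.7, and 436.2 and of 299.9, 326.2, and 373.5, with a log2 fold change of −0.47 (adjusted p = 0.0398, SE 0.11). In both genes WT replicate 3 was the lowest WT liver and *Themis*-KO replicate 3 the highest *Themis*-KO liver, so the gap was narrowest between these 2 livers.

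*Tat* (ENSMUSG00000001670, chromosome 8, 109990437 to 109999803, forward strand) was the exception. Its CPM was 726.8, 766.8, and 912.1 in WT livers and 329.9, 675.4, and 1164 in *Themis*-KO livers. *Themis*-KO replicate 1 thus lay below and replicate 3 above every WT liver. The log2 fold change was −0.15 (adjusted p = 0.815 by edgeR, SE 0.38) and turned to 0.19 without *Themis*-KO replicate 1. The highest *Themis*-KO liver had 3.53 times the CPM of the lowest, against 1.13 to 2.13 times for the other 8 genes, and 0.561% of tested genes of at least 55.9 CPM had a ratio as high.

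Since *Tat* is induced by glucocorticoids, 5 other glucocorticoid-induced genes of a companion list were set beside it. *Tsc22d3*, which encodes the leucine zipper protein GILZ, had a CPM of 57.7, 82.2, and 63.2 in WT livers and 26.0, 50.5, and 133.9 in *Themis*-KO livers, which thus had the same order as for *Tat*. *Pck1*, for the gluconeogenic enzyme PEPCK, had 1112, 1615, and 1935 CPM in these 3 livers and 1852 to 2190 CPM in WT livers. *Per1*, a clock gene, had 46.2, 55.8, and 67.4 CPM in *Themis*-KO livers, again in this order, and 40.8 to 44.4 CPM in WT livers. *Fkbp5*, for a chaperone of steroid receptors, ranged from 45.3 to 83.3 CPM in *Themis*-KO and from 33.7 to 78.5 CPM in WT livers with no such order, and the kinase gene *Sgk1* from 26.0 to 44.2 and from 16.8 to 27.2 CPM. None of the 5 was called in either direction by edgeR or by DESeq2. At an unadjusted p under 0.05 by edgeR 2 were higher, and that share was not counted over all genes. The order of the *Themis*-KO livers was not particular to these genes. *Hpd*, *Hgd*, *Fah*, *Tdo2*, *Kmo*, and *Kynu* had it too, and its share among all tested genes was not counted. In WT livers *Sgk1* had the order of *Tat*, while *Tsc22d3*, *Per1*, *Pck1*, and *Fkbp5* did not. The part of this variation between livers in the *Tat* result was not tested.

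**Figure D2:**
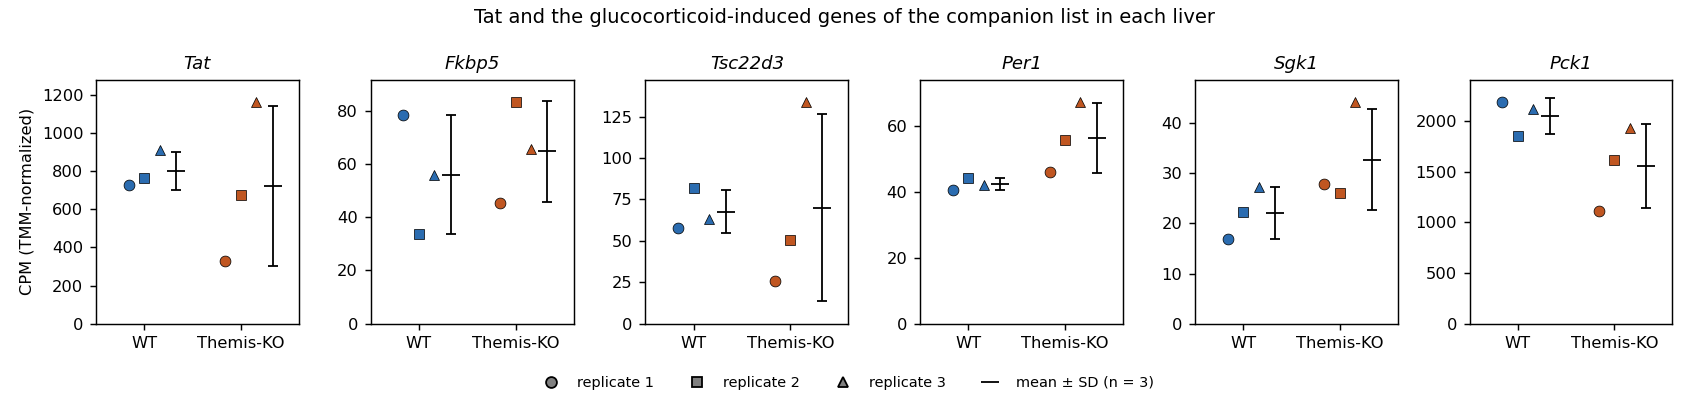
TMM-normalized CPM of *Tat* and of 5 glucocorticoid-induced genes in each liver. Points are livers, marker shapes are replicate numbers, and bars are the mean ± SD of 3 livers. In *Themis*-KO replicates 1, 2, and 3 *Tat*, *Tsc22d3*, *Per1*, and *Pck1* share the order 1, 2, 3 from low to high, and *Fkbp5* and *Sgk1* do not. *Hpd*, *Hgd*, *Fah*, *Tdo2*, *Kmo*, and *Kynu*, not drawn here, have this order too.

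In the tryptophan path, *Tdo2* (ENSMUSG00000028011, chromosome 3, 81957090 to 81976202, reverse strand), for the dioxygenase that opens the indole ring, had a CPM of 1277, 1425, and 1233 in WT livers and 860.9, 976.5, and 1058 in *Themis*-KO livers. The log2 fold change of −0.44 (adjusted p = 0.0495 by edgeR, SE 0.11) lay just inside the threshold. *Tdo2* is known as glucocorticoid-induced like *Tat*. Its *Themis*-KO livers had the same order as for *Tat* and differed by 1.23 times at most.

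*Afmid* (ENSMUSG00000017718, chromosome 11, 117825924 to 117839908, forward strand), for the formamidase that releases kynurenine, was the least abundant of the 9, with a CPM of 71.1, 92.8, and 60.3 in WT livers and 29.8, 26.0, and 55.2 in *Themis*-KO livers. *Themis*-KO replicate 3 came close to WT replicate 3. The log2 fold change was −1.02 (adjusted p = 0.0635 by edgeR, SE 0.29), and it was called by DESeq2 (adjusted p = 0.00301) and without *Themis*-KO replicate 3 (−1.44, adjusted p = 0.00294). *Afmid* overlaps the thymidine kinase gene *Tk1* head to head, with 83 shared exon bases and RefSeq start sites that lie on opposite strands within a stretch of 96 bases. *Tk1* had a CPM of 13.3, 18.2, and 12.3 in WT livers and 7.39, 6.66, and 14.7 in *Themis*-KO livers (log2 fold change −0.61, SE 0.30, adjusted p = 0.213). For both genes WT replicate 2 was the highest WT liver and *Themis*-KO replicate 2 the lowest *Themis*-KO liver. The use of strand in counting is not given in the sources used here, so reads from the shared bases cannot be told apart, and those bases are few beside the 3539 exon bases of *Afmid*. A read-through gene, *Gm20708*, shares 1566 exon bases with *Afmid* and holds 9 counts over all livers.

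The 3 enzymes after kynurenine all fell. *Kmo* (ENSMUSG00000039783, chromosome 1, 175620381 to 175662116, forward strand), for the hydroxylase of kynurenine, had a CPM of 358.5, 328.4, and 285.9 in WT livers and 170.7, 194.2, and 230.7 in *Themis*-KO livers, and its log2 fold change was −0.71 (adjusted p = 0.0300 by edgeR, SE 0.14). *Haao* (ENSMUSG00000000673, chromosome 17, 83831156 to 83847963, reverse strand), whose product becomes quinolinate, had 395.4, 393.7, and 380.0 CPM in WT livers, the tightest WT group of the 9, and 226.9, 223.6, and 306.0 CPM in *Themis*-KO livers. Its log2 fold change was −0.63 (adjusted p = 0.0345, SE 0.13). *Kynu* (ENSMUSG00000026866, chromosome 2, 43555329 to 43682715, forward strand), for kynureninase, had 143.6, 125.7, and 118.1 CPM and 85.5, 91.6, and 105.9 CPM, with a log2 fold change of −0.45 (adjusted p = 0.0482, SE 0.11).

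The livers ranked alike across the 9 genes. *Themis*-KO replicate 3 was the highest *Themis*-KO liver for all 9 and *Themis*-KO replicate 1 the lowest for 7. WT replicate 3 was the lowest WT liver for 8 and WT replicate 1 the highest for 6. The summed CPM of the 9 genes was 5342, 5181, and 4888 in WT livers and 2733, 3292, and 4153 in *Themis*-KO livers, without overlap. Without *Tat*, the sum was 4335 ± 327.0 CPM in WT and 2669 ± 296.0 CPM in *Themis*-KO livers (SD, n = 3 each).

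Levels can be compared between genes only per length. On the scale of CPM per kilobase of annotated exon, *Hpd* was highest in WT livers at 550.8 ± 91.9, followed by *Tdo2* at 338.0 ± 25.9 and *Tat* at 333.4 ± 40.6 (SD, n = 3 each), of which the last 2 did not differ beyond their spread. *Fah* followed at 213.5 ± 12.7, *Hgd* at 175.9 ± 8.26, *Haao* at 83.2 ± 1.80, and *Kmo* at 68.6 ± 7.72, with *Afmid* at 21.1 ± 4.67 and *Kynu* at 21.0 ± 2.13 alike within their spread. In *Themis*-KO livers the levels were 300.7 ± 174.4 for *Tat*, 248.7 ± 25.6 for *Tdo2*, and 220.9 ± 21.0 for *Hpd*, which were not separated beyond their spread. *Fah*, *Hgd*, *Haao*, and *Kmo* kept their order there, at 143.8 ± 9.73, 127.4 ± 14.3, 53.9 ± 9.96, and 42.0 ± 6.40. *Kynu* had 15.3 ± 1.71 and *Afmid* 10.4 ± 4.48. Lengths are those of all annotated exons of a gene and not of the isoforms present.

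Most of these enzymes are hepatocyte products, and in whole liver fewer hepatocytes and less RNA per hepatocyte cannot be told apart. The mean log2 CPM of 11 hepatocyte markers, such as *Alb* and *Apoa1*, ran from 11.63 to 11.78 in WT and from 11.47 to 11.52 in *Themis*-KO livers without overlap, a difference of −0.20. Of these markers, 1 was called lower and 0 higher, against 4.14% and 4.97% of all tested genes. The log2 fold changes of the 11 markers ran from −0.46 to 0.23, with 10 negative and 1 positive. When the marker score of each liver was subtracted from the log2 CPM of a gene, all 9 differences between the groups remained negative, and for 8 the *Themis*-KO livers still lay below every WT liver, as did 6.02% of all tested genes. The difference was −1.11 for *Hpd*, −0.87 for *Afmid*, −0.52 for *Kmo*, −0.45 for *Haao*, −0.37 for *Fah*, −0.27 for *Hgd*, −0.26 for *Kynu*, and −0.25 for *Tdo2*. Each of these 8 had p = 0.1 in an exact two-sided permutation test (0.1125 adjusted over the 9 genes), the smallest that this permutation test can give with 3 livers against 3, so it could not reach 0.05. *Tat* differed by −0.13 with overlap (exact two-sided permutation p = 0.9).

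**Figure D3:**
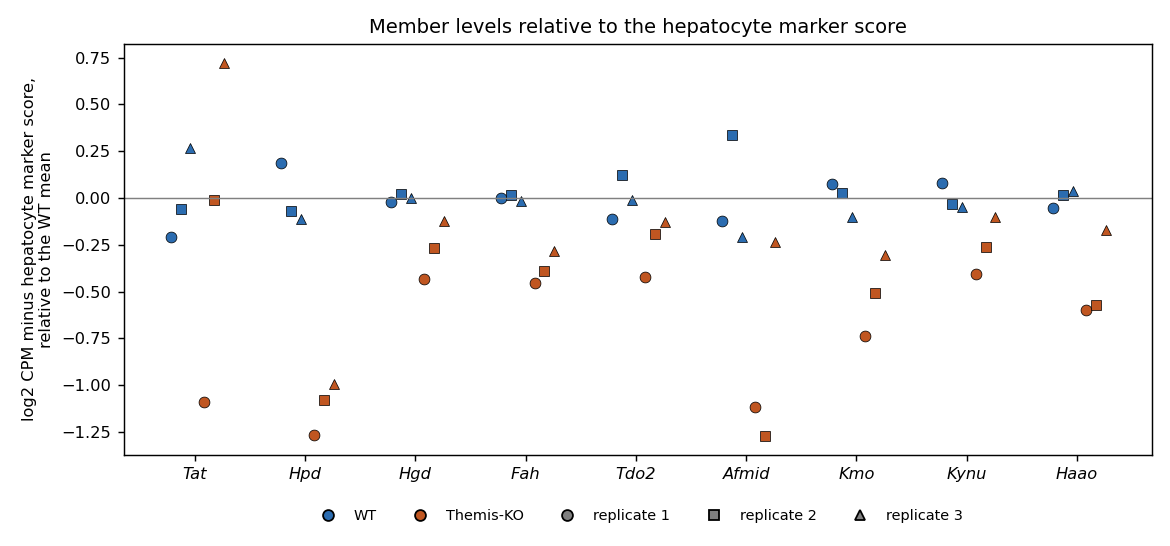
Log2 CPM of each gene minus the mean log2 CPM of 11 hepatocyte markers in the same liver, drawn as the difference from the WT mean of that gene. Points are livers, colors are genotype labels, and marker shapes are replicate numbers. Apart from *Tat*, the *Themis*-KO points lie below the WT points, farthest for *Hpd* (−1.11 between the group means) and closest for *Tdo2* (−0.25).

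Several lists of markers of other liver cells had higher summed levels in *Themis*-KO livers. The 10 macrophage markers had summed levels of 345.1 to 607.3 CPM in WT and 570.5 to 746.7 CPM in *Themis*-KO livers, with 2 of 10 called higher and WT replicate 3 at the top of its group. The 9 hepatic stellate cell markers had 425.3 to 473.8 CPM and 638.9 to 691.7 CPM, with 5 of 9 called higher. The 6 tested cholangiocyte markers had 152.8 to 192.4 CPM and 386.5 to 614.1 CPM, with 2 called higher and *Themis*-KO replicate 1 at the top. Most of that sum was *Spp1*, which encodes osteopontin, at 136.7 to 179.9 CPM and 366.0 to 570.1 CPM, and the other 5 summed to 12.5 to 16.1 CPM and 20.0 to 44.0 CPM. Endothelial markers had 199.9 to 210.3 and 212.3 to 247.0 CPM, with 1 of 6 called higher, and the 4 tested T cell markers summed to 1.89 to 4.46 CPM and the 4 B cell markers to 1.59 to 5.56 CPM over all livers, with 1 T cell marker called lower. Of all tested genes, 4.97% were called higher and 4.14% lower. The part of these other cells in the lower enzyme levels was not tested.

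Further genes of the same pathways were taken from a companion list of 44 genes, of which 42 were tested. Of these, 11 fell and 1 rose, against the same 4.14% and 4.97% of all tested genes, with a median log2 fold change of −0.30. Of the 7 tested tryptophan and kynurenine genes, 6 were lower. *Ido2*, a relative of TDO2 that also opens the indole ring, had a CPM of 89.6, 74.9, and 69.5 in WT livers and 20.8, 27.8, and 44.8 in *Themis*-KO livers, a log2 fold change of −1.33 (adjusted p = 0.0302 by edgeR, SE 0.26). *Kyat1*, *Kyat3*, and *Aadat*, for aminotransferases that divert kynurenine to kynurenic acid, changed by −1.19 (adjusted p = 0.0161, SE 0.18), −0.63 (adjusted p = 0.0386, SE 0.14), and −0.70 (adjusted p = 0.0248, SE 0.12). Genes of the side branch were thus lower as well as those of the main path. *Dhtkd1* and *Gcdh*, which act later on 2-oxoadipate and glutaryl-CoA, fell by 0.90 and 0.61 on the log2 scale (adjusted p = 0.0417 and 0.0351). *Acmsd*, which steers the product of HAAO away from quinolinate, had −0.90 (adjusted p = 0.172, SE 0.40). *Ido1* had at most 0.0472 CPM in any liver and was not tested.

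Of 7 companion genes of phenylalanine and tyrosine metabolism, 2 fell. *Qdpr*, which regenerates the cofactor tetrahydrobiopterin, had a CPM of 319.4, 299.1, and 297.8 in WT livers and 190.3, 190.1, and 237.2 in *Themis*-KO livers, and fell by 0.57 on the log2 scale (adjusted p = 0.0302 by edgeR, SE 0.11). The other 5 genes of this group, all with negative values, did not pass, among them *Pcbd1*, also of cofactor recycling, at −0.15 (adjusted p = 0.394, SE 0.11), and *Gch1*, of cofactor synthesis, at −0.30 (adjusted p = 0.0575, SE 0.082). None of the 6 companion genes of NAD synthesis, from quinolinate or by salvage, was called by edgeR, with log2 fold changes from −0.65 to −0.032. The value nearest to 0 was that of *Nampt*, a salvage gene, which was positive with scaling by total counts alone. Of the 6 genes, 3 were lower at an unadjusted p under 0.05 by edgeR, against 13.9% of all tested genes. DESeq2 called 1 lower, against 7.83% of the genes it tested. *Qprt*, which follows quinolinate, had −0.16 (adjusted p = 0.349, SE 0.11). A difference in response between these groups of genes was not tested.

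The 5 transporter genes went in both directions. *Slc43a1*, for the neutral amino acid transporter LAT3, had a CPM of 12.3, 6.76, and 6.51 in WT livers and 1.44, 1.46, and 1.46 in *Themis*-KO livers, the largest change of the list at −2.54 (adjusted p = 0.00936 by edgeR, SE 0.29). *Slc16a10*, for the aromatic amino acid transporter TAT1, fell by 0.65 on the log2 scale (adjusted p = 0.0386, SE 0.14). *Slc3a2*, for the heavy chain CD98 that pairs with LAT1 and LAT2, rose by 0.66 (adjusted p = 0.0457, SE 0.16), from 31.5, 30.7, and 33.8 CPM to 54.6, 59.7, and 37.7 CPM. *Slc7a5* and *Slc7a8*, for these light chains, had 0.53 (adjusted p = 0.144, SE 0.22) and 0.82 (adjusted p = 0.0526, SE 0.21).

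Of 7 transcription factors known to act on such promoters, 0 were called by edgeR. At an unadjusted p under 0.05, 4 were lower, against 13.9% of all tested genes, and 1 was higher. DESeq2 called 2 lower and 1 higher, against 1090 and 1279 of the 13929 genes it tested. *Nr3c1*, for the glucocorticoid receptor, had −0.22 (adjusted p = 0.141, SE 0.090). Kynurenine is a ligand of the aryl hydrocarbon receptor, and of 5 tested genes of that group *Cyp1a2* fell by 0.93 (adjusted p = 0.0131, SE 0.13), from 191.1, 211.2, and 160.3 CPM to 89.5, 94.4, and 110.5 CPM. *Ahr* had 0.38 (adjusted p = 0.368, SE 0.27) and *Cyp1a1* 0.39 (adjusted p = 0.581, SE 0.45), and 4 of the 5 values were positive. Of the 5 genes, 1 was lower and 2 were higher at an unadjusted p under 0.05 by edgeR, and DESeq2 called 1 lower and 1 higher. The same shares of all genes apply, and the share higher at an unadjusted p was not counted.

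**Figure D4:**
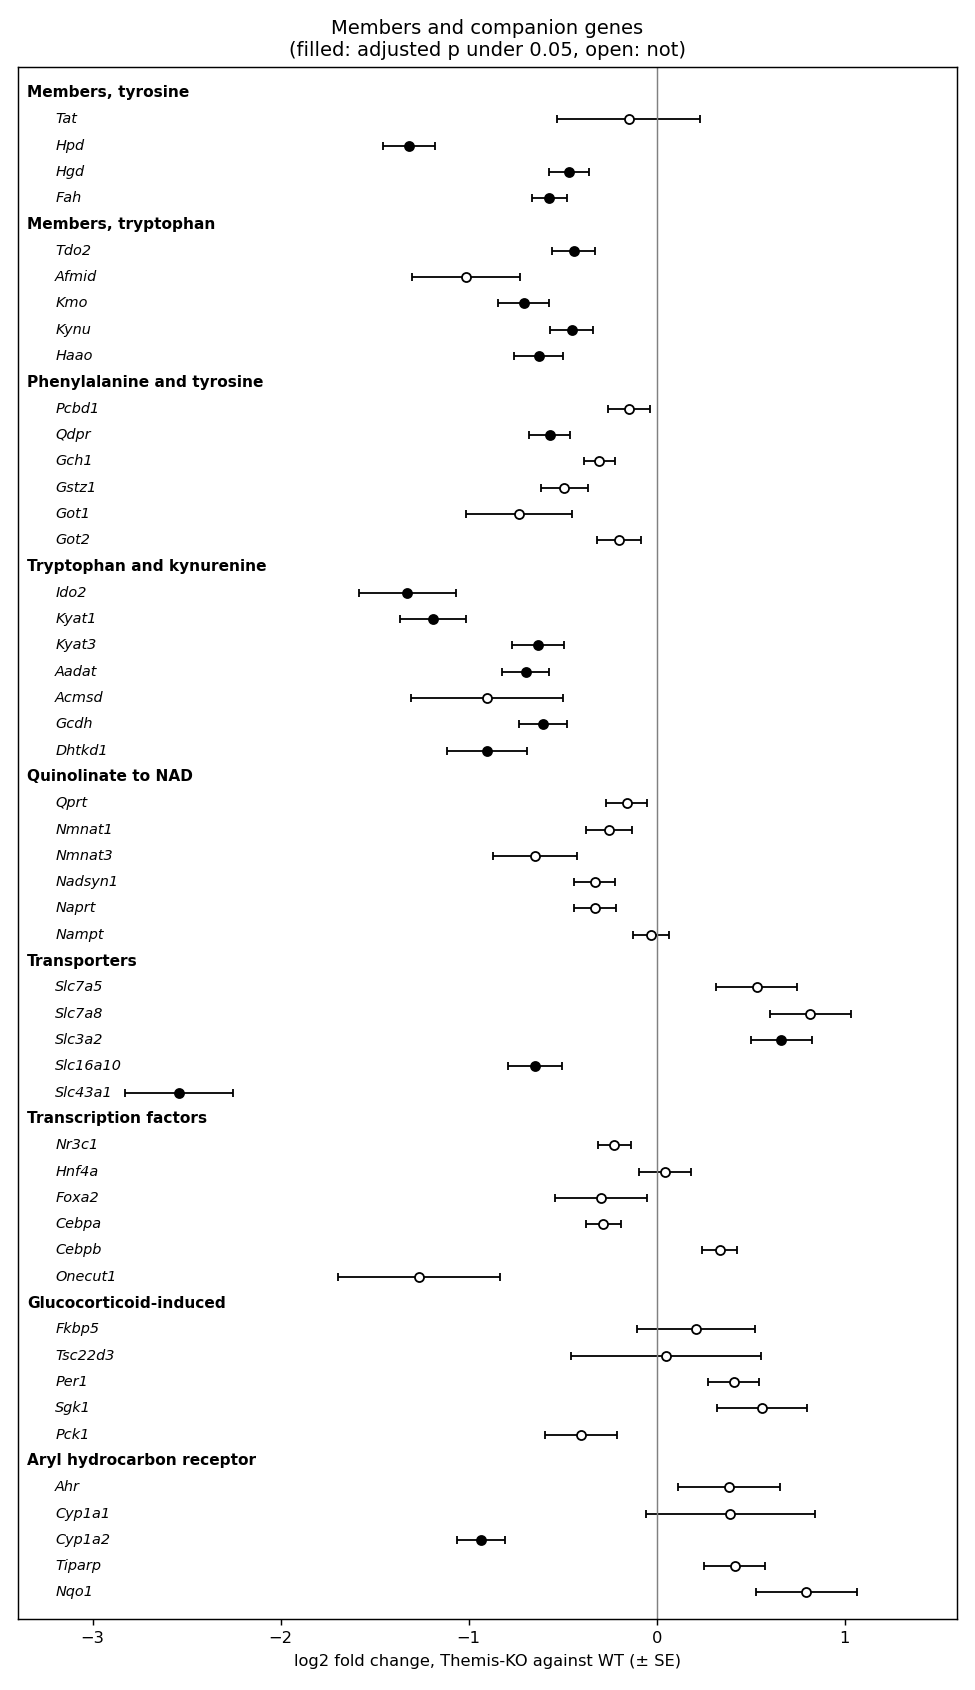
Log2 fold change of *Themis*-KO against WT livers for the 9 genes and 40 companion genes, grouped by role. Points are edgeR estimates from 3 livers per group, bars are their standard errors, and filled points have an adjusted p under 0.05. Filled points lie left of 0 except for *Slc3a2* at 0.66, and the widest departure is *Slc43a1* at −2.54.

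Lists of other amino acid pathways of the liver are given beside these. Of 8 urea cycle genes, 4 were called lower, against 4.14% of all tested genes, with a median log2 fold change of −0.50. Of 17 genes of lysine and branched-chain amino acid breakdown, 8 were called lower, with a median of −0.42. In neither list was a gene called higher. Without overlap, 5 of the 8 and 14 of the 17 were lower, against 16.9% of all tested genes. DESeq2 called 6 and 11 lower, against 7.83% of the genes it tested. The difference of these lists from the 9 genes was not tested.

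**Figure D5:**
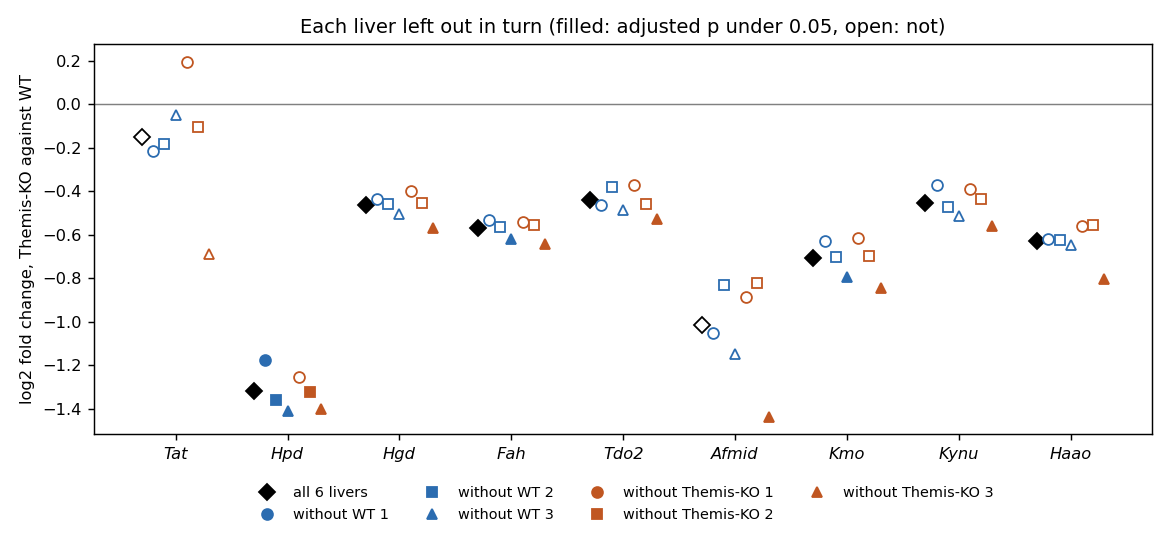
Log2 fold change of each gene with all 6 livers and when single livers were omitted. Marker shapes and colors give the liver left out, and filled points have an adjusted p under 0.05 over all genes. The values of 8 genes stay below 0 throughout while many points are open, and *Tat* runs from −0.69 to 0.19.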

How the data were processed

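Liver mRNA libraries were paired-end sequenced. According to the methods and the submitters' processing notes, the authors trimmed adapters with cutadapt 2.3, mapped reads to GRCm38 with STAR 2.7.8a, and deposited RSEM 1.3.3 estimated counts per gene and liver, without normalization. The annotation release and the use of strand are not given in the sources used here. The deposited estimated counts are whole numbers. RSEM shares reads among similar genes, which can affect overlapping genes.

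Counts were analyzed in R 4.3.3 with edgeR 4.0.16 (filterByExpr, TMM, glmQLFit, glmQLFTest) on all 6 livers without covariates, and p values were adjusted by Benjamini-Hochberg over 14496 genes with a threshold of 0.05. SE was the log2 fold change divided by the square root of F. Log2 CPM used a prior count of 2. Named genes are the 9 enzymes, companion genes past the threshold, and at most 2 others per group in list order. *Per1*, *Sgk1*, *Pck1*, *Nampt*, *Spp1*, and *Gm20708* fall outside this rule and were chosen after their values were seen. Some listed genes and a motif are not reported here. The 9 genes and all lists were chosen with earlier results of these data known. Coordinates and exon lengths are from GENCODE vM21, promoters from RefSeq. Code was tested on simulated data. Alternatives included DESeq2 1.42.0, other scalings and filters, a replicate block, and each liver left out. Whether the samples come from separate mice of separate litters or cages is not stated, so p values measure the spread between these livers. Figures used matplotlib 3.10.9.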

Additional observations from a re-analysis of the deposited data

How the results depend on the processing

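The number of the 9 genes called lower, 7 with all livers, was 4 when only total counts set the scale, 1 under the replicate block, 0 with the mitochondrial split as a covariate, and 3 when a fold change of at least 1.5 was also required. It ranged from 0 to 8 when single livers were omitted. The number of companion genes called lower, 11 with all livers, was 17 with DESeq2, 1 with the replicate block, and 0 with the mitochondrial split, and ranged from 0 to 20 when single livers were omitted. The number called higher, 1 with all livers, was 4 with total counts alone, 3 without a filter on low counts, 4 with DESeq2, and 0 with the replicate block or the mitochondrial split, and ranged from 0 to 4 when single livers were omitted. Over all genes, 600 were lower and 721 higher. These numbers were 387 and 1447 with total counts alone, 967 and 1212 without a filter, 45 and 17 with the replicate block, 3 and 0 with the mitochondrial split, and 1090 and 1279 with DESeq2, and ranged from 12 to 2039 and from 8 to 2228 when single livers were omitted. The causes were not tested. Scaling by total counts alone moved the median log2 fold change of all genes to 0.15. *Tat* had −0.69 when *Themis*-KO replicate 3 was omitted and reversed to 0.19 when *Themis*-KO replicate 1 was, and its level relative to hepatocyte markers ranged from −0.55 to 0.36 without these livers and was 0.0072 without WT replicate 3. Of 126 values of the 9 genes, 75 kept their direction and side of the threshold, 47 lost the call, 3 gained it, and 1 reversed. The study speaks of pairs of livers without saying what a pair shares, and the replicate numbers have no stated meaning. Same-numbered livers correlated in their deviations from the group means by 0.00028, −0.24, and −0.16, and 0 of 6 livers correlated best with its own number, so the block pairs livers by number only; with it, 8 of the 9 genes were lower at an unadjusted p under 0.05, against 10.3% of all genes, and *Hpd* alone was called, against 0.31%. Of the urea cycle and the lysine and branched-chain genes, 0 were called with the block. Counting error is small at these depths, and the 3 livers per group limit the precision.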
